A study of Mus musculus with 12 samples.

Results

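CD4 intraepithelial lymphocytes of the small intestine that were negative for ThPOK and carried CD8a were compared with those that were positive for ThPOK. The members of the comparison are 8 of the 12 arrays of the study, the 4 titled as ThPOK-negative and CD8a-positive and the 4 titled as ThPOK-positive and CD8a-negative, and the titles alone say which array is which. The subsets are called CD8a+ and ThPOK+ cells below. ThPOK is a zinc finger transcription factor that holds T cells in the CD4 helper lineage. In the gut epithelium some CD4 T cells switch it off, come under the control of Runx factors, take on CD8 alpha homodimers, and become cytotoxic-like cells with less helper function. The epithelium is also a site of Th17 cells, which make interleukin-17 and interleukin-22.

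All cells carried the B6-ThPOK-GFP reporter, in which green fluorescent protein reports ThPOK, and the age given is 10 to 12 weeks. TR CD8a+ and TR ThPOK+ cells (2 arrays each) were sorted from RAG-/- recipients, which lack T and B cells of their own, after transfer of naive CD4 T cells of reporter mice, an experimental model of colitis. WT CD8a+ and WT ThPOK+ cells (2 arrays each) came from reporter mice outside any experiment. The study's other 4 arrays, of cells with neither ThPOK nor CD8a (CD8a- cells), entered the fit for its estimate of the spread. Each host and replicate number gives a set of 3 arrays, and CD8a+ cells were compared with the ThPOK+ cells of the same set. The labels do not say that replicates were separate animals, so the p-values reflect how far these arrays vary, and part or all of that variation may be technical. The deposited tables disagree on the host of replicate 1, a conflict that leaves the pairing within a set as it is, and host names here are those of the intensity table.

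Signal differed by replicate number. On the 8 arrays, median raw signals of 113.6 to 130.8 were seen in replicate 1 and of 206.7 to 233.9 in replicate 2. Between 12024 and 13091 probes were detected per array in replicate 1 and between 6721 and 7971 in replicate 2, and each replicate held both subsets. T cell genes were present, with Cd3e, Cd3d, Cd3g, Cd4 and Lck detected on 12 of 12 arrays. Cd2, of the same list, was detected on 11 of 12 arrays and on 3 of the 4 CD8a+ arrays. Its mean log2 signal was 7.68 in CD8a+ cells and 9.38 in ThPOK+ cells. All its CD8a+ arrays lay below all its ThPOK+ arrays, and it was not among the genes past the threshold given below. Markers of other cells were detected in part. Of the NK cell list, Tyrobp was detected on 12, Klrb1c on 7, Eomes on 3, Klre1 on 1 and Ncr1 on 0 of 12 arrays. Of the myeloid and dendritic list, H2-Ab1 was detected on 10, Cd74 on 8, Itgax on 6 and Csf1r on 4 arrays, and Cd14, Cd68, Itgam and Fcgr1 on 0. Of the B and plasma cell list, Jchain was detected on 3 arrays and Pax5 and Mzb1 on 0. The transcript of CD8a did not tell the sorted subsets apart, and that of ThPOK was not analysed here. ThPOK is the product of Zbtb7b, a symbol that no probe used here carries, and the log2 signal of Cd8a was 8.0, 8.07, 7.35 and 8.44 in CD8a+ cells, against 7.30, 7.35, 7.41 and 8.08 in ThPOK+ cells (difference 0.43 ± 0.21, SE, adjusted p = 0.543), with overlapping arrays and a difference of -0.06 in WT set 1. Values of 4 arrays are given here and below in the order TR replicate 1, TR replicate 2, WT replicate 1 and WT replicate 2. Cd4, at 10.44, 10.66, 10.65 and 10.62 in CD8a+ cells and 10.15, 11.27, 10.25 and 10.26 in ThPOK+ cells, overlapped between the subsets (difference 0.11 ± 0.20, adjusted p = 0.913). All levels are log2 of background-corrected, quantile-normalised signal, and differences are CD8a+ minus ThPOK+.

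Genes that rose in CD8a+ cells included the cytotoxic genes Gzmb, Gzmk, Nkg7 and Fasl, the NK-type receptors Cd244a and Klrd1, and Lat2, Glp1r and Gabarapl1. Genes that fell included 7 of 12 tested Th17 genes, 6 of 13 tested genes of costimulation and help, and the transcription factors Tcf7, Hif1a and Epas1. The gene lists were chosen with earlier results of these data known, so counts of their members are descriptions. The largest fitted rises were those of Mras, a Ras-family GTPase, and Scin, an actin-severing protein, both detected on 0 of 4 ThPOK+ arrays and so measured against a floor. The largest fitted falls were those of the chemokine receptor Ccr6, the unnamed LOC100048845 and the cytokine Il17a, detected on 2, 2 and 1 of 4 CD8a+ arrays in that order. Of 10612 genes tested, 27 rose and 33 fell (limma with the set as a block, adjusted p under 0.05, n = 4 arrays per subset). These are 0.254% and 0.311% of the genes tested, and 0.565% together. At an unadjusted p under 0.05 were 1039 genes (9.79%), which is the background for counts at that level. The differences of the 60 genes had a size of 0.81 to 3.68 on the log2 scale, with SE of 0.137 to 0.56, while the median difference of all genes was 0.0034. Of the 10612 genes, 5368 had a positive and 5244 a negative difference, which is the background for counts of signs in lists. In bulk samples, fewer cells of a type and less RNA per cell cannot be told apart.

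**Figure D1:**
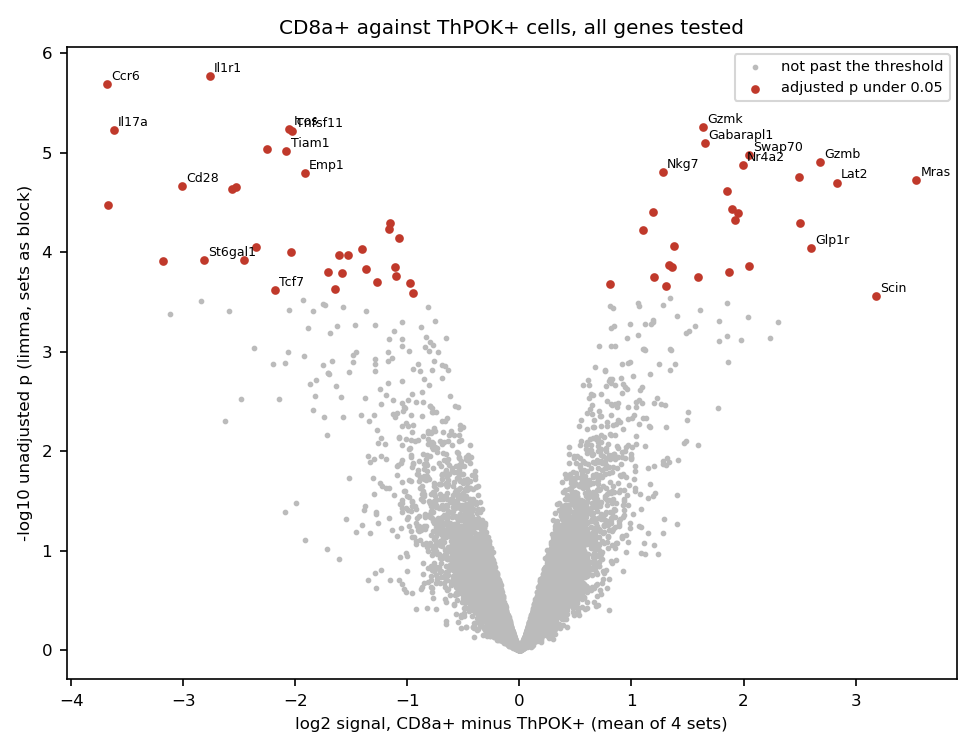
Difference in log2 signal between CD8a+ and ThPOK+ cells (mean of 4 sets, horizontal axis) against -log10 of the unadjusted limma p (vertical axis) for each of 10612 genes. Red points are the 27 genes higher and 33 lower with an adjusted p under 0.05, and gray points are the other genes.

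On the arrays themselves, the 4 CD8a+ and 4 ThPOK+ values did not overlap for 55 of the 60 genes, against 324 of all genes (3.05%, with 1.57% all higher and 1.48% all lower). Usp11, Usp20, LOC100045268 and Tnfrsf26 were among the 5 whose arrays overlapped. Each of the 60 had the same sign in 4 of 4 sets, as had 1875 of all genes (17.7%). The median size of their differences was 1.96 in TR set 1, 1.89 in TR set 2, 1.38 in WT set 1 and 2.26 in WT set 2, against 0.298, 0.279, 0.296 and 0.427 for all genes. For 13 of the 60 the mean of the replicate 1 sets was the larger one. The calls rest on the whole design: with only the 8 arrays compared, limma passed 0 genes (904 at an unadjusted p under 0.05, smallest adjusted p 0.0831). Without TR ThPOK+ replicate 1 it passed 2 genes and without TR CD8a+ replicate 1 it passed 5. The direction of all 60 held with each of the 12 arrays left out. Their same sign in 4 of 4 sets made that likely in advance, so it is no separate support.

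**Figure D2:**
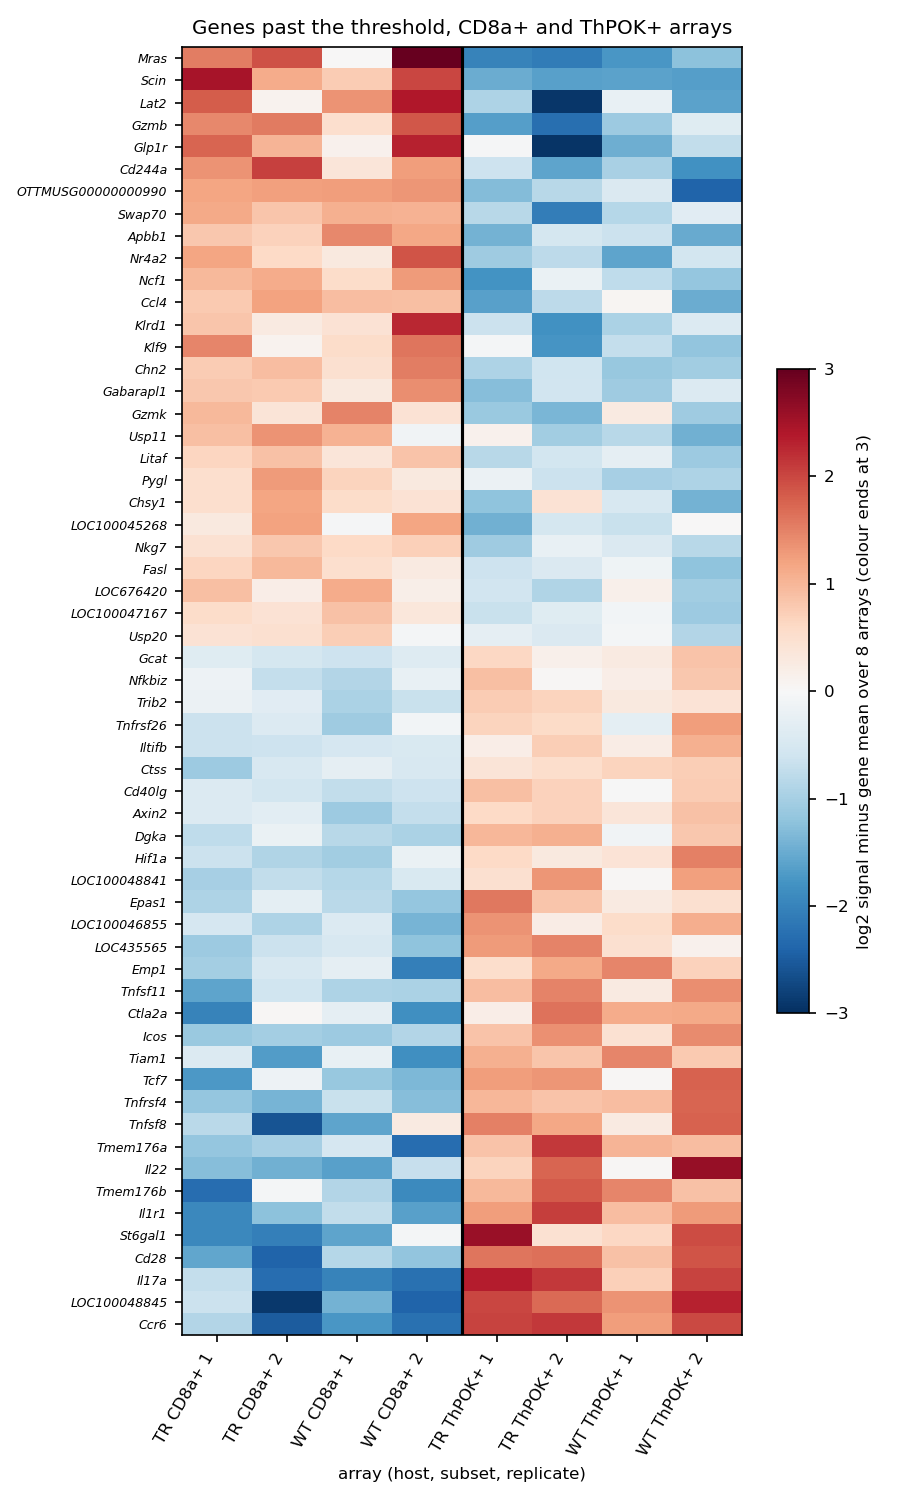
Log2 signal of 58 of the 60 genes past the threshold on the 4 CD8a+ arrays (left of the line) and the 4 ThPOK+ arrays (right), with the gene's mean over the 8 arrays subtracted. Rows run from the highest difference (Mras, 3.54) to the lowest (Ccr6, -3.68), red is above and blue below the mean, and the colour ends at 3.

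**Figure D3:**
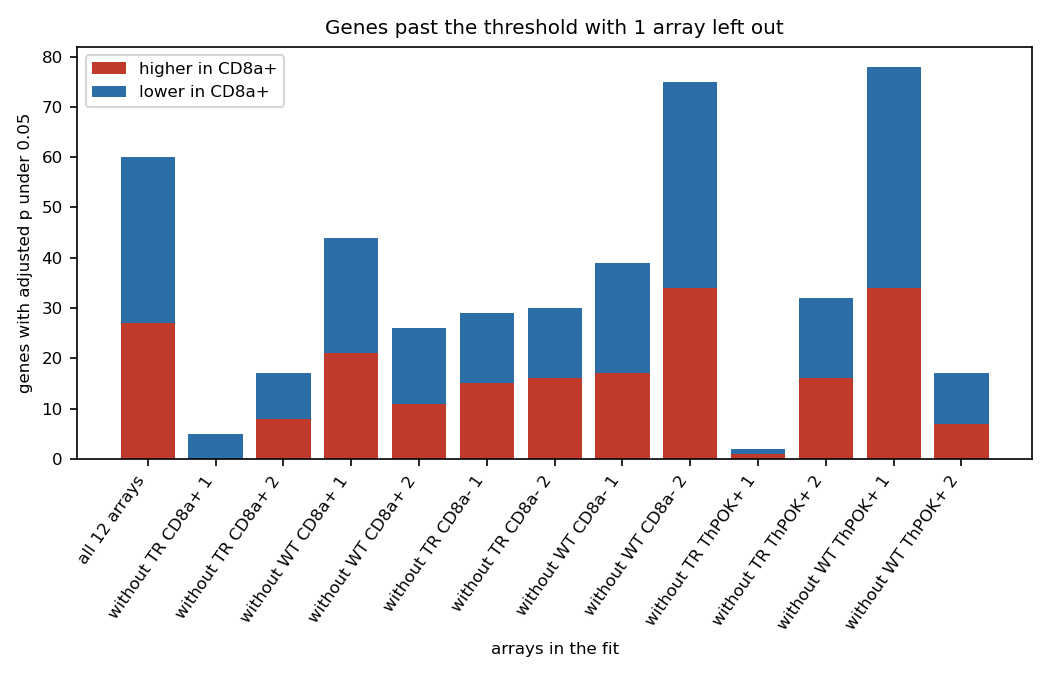
Number of genes with an adjusted p under 0.05 (vertical axis) with all 12 arrays and with each array left out in turn (horizontal axis), split into genes higher (red) and lower (blue) in CD8a+ cells. The count is 60 with all arrays and runs between 2 and 78 with 1 left out.

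Promoter windows of the leading genes are shown because Runx factors and ThPOK are known to oppose each other in T cells, and motifs can be read in them. Each covers 300 bases around a gene start in RefSeq on GRCm38.p6, most of them upstream, read 5′ to 3′ on the strand of the gene. Capitals mark matches, on either strand, to 6 short motifs: TGTGGT (Runx), AGGTCA (nuclear receptor core), TGANTCA (AP-1), TCAAAG (Tcf and Lef), GGTGTG (T-box) and GGAAAC (NFAT with a flanking base). The 3 genes with the largest fitted rise and the 3 with the largest fitted fall that had a printable window are given, with Tmem176a for the reason below. Mras, Scin and Gzmb were higher in CD8a+ cells and the other 4 were lower.
Mras (chr9:99436663-99436962, - strand): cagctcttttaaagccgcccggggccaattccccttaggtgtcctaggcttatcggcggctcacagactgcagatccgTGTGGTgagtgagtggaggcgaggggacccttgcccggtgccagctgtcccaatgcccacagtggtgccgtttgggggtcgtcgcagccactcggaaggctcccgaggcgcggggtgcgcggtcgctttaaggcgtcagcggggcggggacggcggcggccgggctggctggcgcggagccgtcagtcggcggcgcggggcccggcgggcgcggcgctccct
Scin (chr12:40134179-40134478, - strand): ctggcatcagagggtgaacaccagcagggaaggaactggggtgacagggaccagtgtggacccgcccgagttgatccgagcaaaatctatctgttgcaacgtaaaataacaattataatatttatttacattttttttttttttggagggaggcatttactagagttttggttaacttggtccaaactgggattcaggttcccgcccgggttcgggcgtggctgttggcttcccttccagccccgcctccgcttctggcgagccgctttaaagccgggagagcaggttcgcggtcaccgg
Gzmb (chr14:56262285-56262584, - strand): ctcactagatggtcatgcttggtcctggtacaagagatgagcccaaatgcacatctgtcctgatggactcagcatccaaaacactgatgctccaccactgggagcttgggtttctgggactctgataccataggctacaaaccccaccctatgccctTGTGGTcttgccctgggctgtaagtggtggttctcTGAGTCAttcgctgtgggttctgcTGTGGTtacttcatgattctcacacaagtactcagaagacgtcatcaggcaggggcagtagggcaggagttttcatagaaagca
Ccr6 (chr17:8235793-8236092, + strand): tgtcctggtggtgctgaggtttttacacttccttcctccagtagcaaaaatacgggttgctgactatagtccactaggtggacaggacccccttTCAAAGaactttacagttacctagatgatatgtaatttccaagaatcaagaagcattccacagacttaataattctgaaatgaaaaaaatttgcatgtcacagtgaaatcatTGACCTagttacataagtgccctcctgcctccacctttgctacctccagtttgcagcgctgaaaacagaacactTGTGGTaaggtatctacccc
Il17a (chr1:20730655-20730954, + strand): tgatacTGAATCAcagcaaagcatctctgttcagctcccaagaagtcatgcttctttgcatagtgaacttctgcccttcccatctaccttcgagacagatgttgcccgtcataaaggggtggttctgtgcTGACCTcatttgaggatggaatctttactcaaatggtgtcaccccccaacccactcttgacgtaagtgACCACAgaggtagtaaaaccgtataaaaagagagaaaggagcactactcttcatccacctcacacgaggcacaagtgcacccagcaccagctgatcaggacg
St6gal1 (chr16:23224490-23224789, + strand): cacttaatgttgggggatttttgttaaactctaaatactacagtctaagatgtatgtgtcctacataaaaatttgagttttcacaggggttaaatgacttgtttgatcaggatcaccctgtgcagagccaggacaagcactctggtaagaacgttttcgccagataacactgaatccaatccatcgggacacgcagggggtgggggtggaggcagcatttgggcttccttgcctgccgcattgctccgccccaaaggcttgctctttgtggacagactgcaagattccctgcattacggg
Tmem176a (chr6:48841233-48841532, + strand): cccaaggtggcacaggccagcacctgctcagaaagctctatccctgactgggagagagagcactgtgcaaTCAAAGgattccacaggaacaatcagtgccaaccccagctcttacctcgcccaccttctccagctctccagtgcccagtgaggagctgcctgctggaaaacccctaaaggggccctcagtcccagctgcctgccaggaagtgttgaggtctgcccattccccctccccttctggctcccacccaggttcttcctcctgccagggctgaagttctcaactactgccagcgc

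The Runx letters lay once in the window of Mras and at 2 places in that of Gzmb, among the genes that rose, and once each in the windows of Ccr6 and Il17a, among those that fell. The windows of Scin and St6gal1 held none of the 6 motifs. Over all genes, 20 of the 27 that rose and 21 of the 33 that fell had a RefSeq window, and some had several. Windows can overlap, as those of Tmem176a and Tmem176b do, so the shares are of windows and not of independent promoters. TGTGGT was in 7 of 25 windows (28.0%) of genes that rose, in 4 of 35 (11.4%) of genes that fell and in 13.4% of the 10276 windows of all genes tested. TCAAAG was in 16% of windows of genes that rose, 25.7% of those that fell and 12.4% of all. For TGANTCA the shares were 12.0%, 17.1% and 5.63%, for GGAAAC 36.0%, 22.9% and 20.0%, for AGGTCA 12.0%, 22.9% and 13.1%, and for GGTGTG 24.0%, 17.1% and 17.95%, in the same order. TGTGGT and GGTGTG can share bases. A match is a description of letters in a window and no site of binding.

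Mras encodes a GTPase related to classical Ras, and its log2 signal was 8.71, 9.07, 7.17 and 10.81 in CD8a+ cells, against 5.17, 5.06, 5.43 and 5.94 in ThPOK+ cells, where no array detected it. Its CD8a+ arrays all lay above its ThPOK+ arrays, and it was at least 6.8-fold higher (fitted difference 3.54 ± 0.44, SE, adjusted p = 0.0123). This bound sets the mean of the brighter subset against, on each array of the other, the lowest signal of any detected probe, or the signal of the probe in question where that is higher. Here and below, such a bound concerns means over the arrays and carries no spread, so single sets can lie under it. Lat2, an adaptor that links immunoreceptors to downstream signalling in B cells, mast cells and NK cells, had 11.38, 9.68, 10.90 and 11.96 in CD8a+ cells and 8.64, 6.65, 9.33 and 7.96 in ThPOK+ cells, and rose by 2.83 ± 0.35 (adjusted p = 0.0123). A second Lat2 probe gave 1.82 ± 0.50 and did not pass over all probes (adjusted p = 0.201). The WT set of replicate 1 gave the smallest difference of both genes, 1.74 for Mras and 1.57 for Lat2. Lat2 was the 1 gene to pass among 11 tested Fc receptor type adaptors and kinases, a list with a median difference of 0.20. Plcg2, a phospholipase of the same list, had 7.95, 6.19, 7.85 and 8.09 in CD8a+ cells and 5.60, 5.25, 6.48 and 5.32 in ThPOK+ cells and did not pass (adjusted p = 0.0522).

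Diacylglycerol and Ras signalling held a gene on each side. Dgka, a kinase that removes diacylglycerol and so limits Ras activation after T cell receptor engagement, had 8.61, 9.18, 8.55 and 8.43 in CD8a+ cells, against 10.38, 10.44, 9.27 and 10.18 in ThPOK+ cells, and fell by 1.37 ± 0.22 (adjusted p = 0.0342). Its CD8a+ values were lower in every set. With Mras it made up the 2 of 19 tested diacylglycerol kinase and Ras genes that passed, and the list median was 0.07. Chn2, a Rac GTPase-activating protein that binds diacylglycerol, had 7.72, 7.88, 7.45 and 8.51 in CD8a+ cells and 6.03, 6.36, 5.82 and 5.92 in ThPOK+ cells and rose by 1.85 ± 0.24 (adjusted p = 0.0123). Of 24 tested genes of the T cell receptor complex and its proximal kinases none passed in either direction by limma, 4 had an unadjusted p under 0.05, the members lay between -0.54 and 0.45, and the median was -0.01.

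Among 26 tested genes of the actin cytoskeleton and its small GTPases, 2 rose, 0 fell, and the median was -0.10. Scin, or scinderin, severs actin filaments when calcium rises. It had 9.15, 7.80, 7.44 and 8.68 in CD8a+ cells, against 5.20, 5.05, 5.07 and 5.02 in ThPOK+ cells, where no array detected it, and it was at least 4.26-fold higher (fitted difference 3.19 ± 0.56, adjusted p = 0.0483). Every CD8a+ array was above every ThPOK+ array, and the ThPOK+ arrays lay within a narrow band at the floor. Swap70, a phosphoinositide-binding protein that acts with Rac on the actin skeleton, had 9.27, 8.98, 9.21 and 9.18 in CD8a+ cells and 7.31, 6.06, 7.28 and 7.79 in ThPOK+ cells and rose by 2.05 ± 0.24 (adjusted p = 0.0112). Its CD8a+ values were nearly level across hosts and replicates, and its 3 other detected probes gave differences of 1.71, 2.29 and 2.10. Tiam1, a guanine nucleotide exchange factor for Rac that was in no list, ran the other way, with 6.81, 5.55, 6.99 and 5.38 in CD8a+ cells and 8.29, 8.05, 8.69 and 8.01 in ThPOK+ cells (fell by 2.08 ± 0.24, adjusted p = 0.0112).

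**Figure D4:**
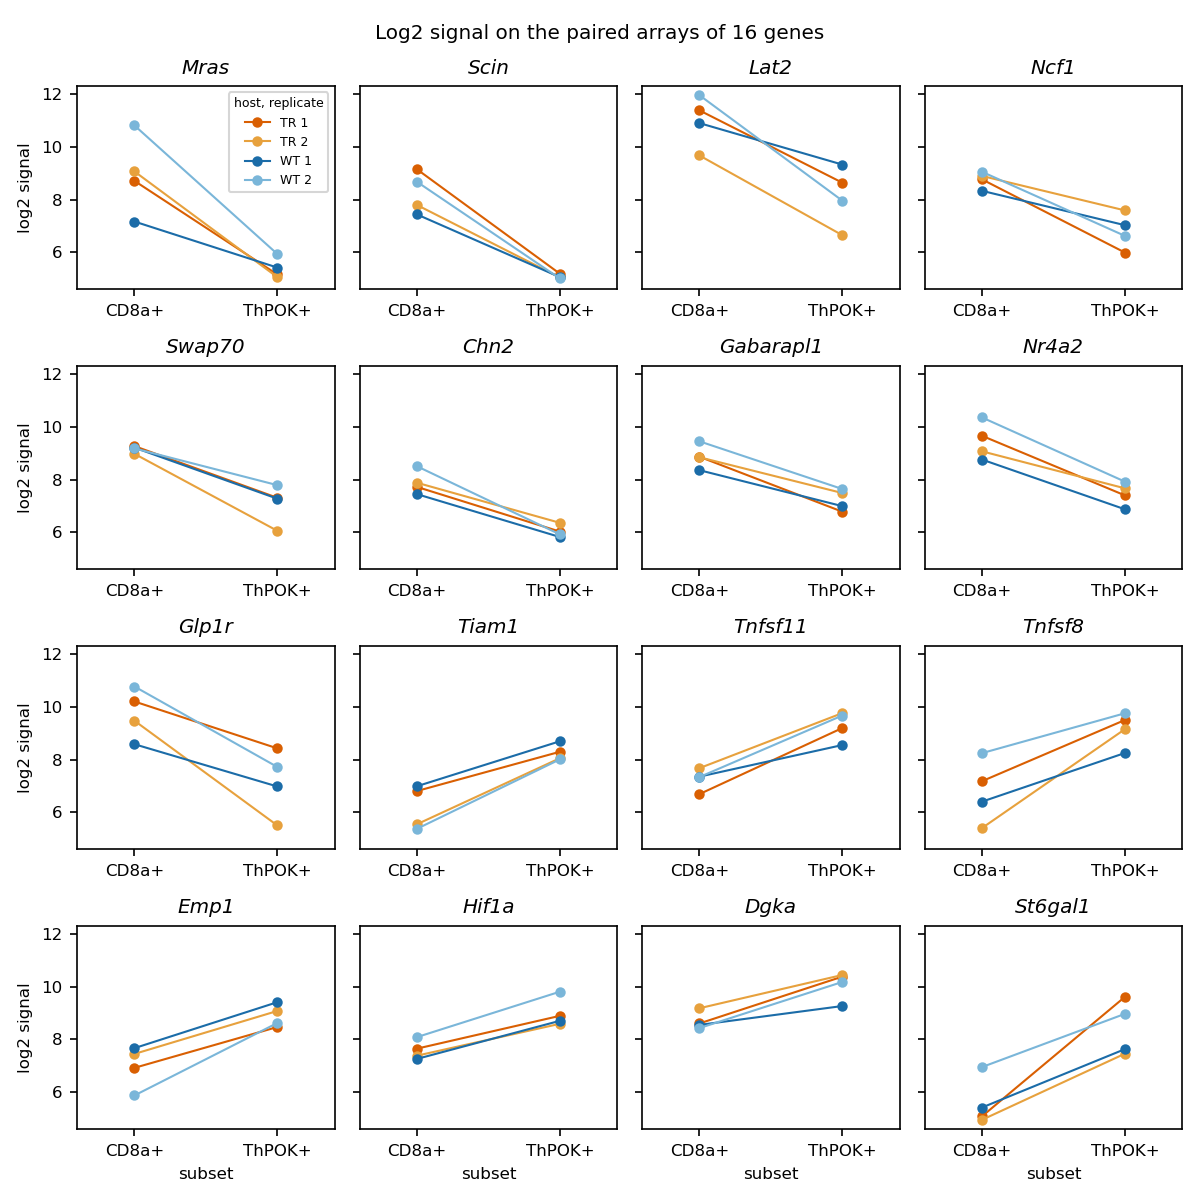
Log2 signal (vertical axis) of 16 genes past the threshold in CD8a+ cells (left) and ThPOK+ cells (right) of the 4 sets, with a line joining the arrays of 1 set. Orange marks TR and blue WT sets, and darker points are replicate 1. Lines of Mras, Scin, Lat2, Ncf1, Swap70, Chn2, Gabarapl1, Nr4a2 and Glp1r fall to the right in all 4 sets, and those of Tiam1, Tnfsf11, Tnfsf8, Emp1, Hif1a, Dgka and St6gal1 rise.

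Glp1r encodes the G protein-coupled receptor of glucagon-like peptide, a gut hormone that raises insulin release. It had 10.20, 9.47, 8.58 and 10.77 in CD8a+ cells, against 8.42, 5.50, 6.98 and 7.72 in ThPOK+ cells, and rose by 2.60 ± 0.39 (adjusted p = 0.0279). The groups did not overlap, although the lowest CD8a+ array and the highest ThPOK+ array were close. It was the 1 gene to pass of 24 tested purinergic and second messenger genes (median 0.13).

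Nuclear and stress-related regulators moved singly. Nr4a2, an orphan nuclear receptor induced within hours of receptor stimulation, had 9.66, 9.07, 8.76 and 10.36 in CD8a+ cells, against 7.40, 7.67, 6.88 and 7.92 in ThPOK+ cells, and rose by 1.99 ± 0.24 (adjusted p = 0.0118). Its relatives did not follow past the threshold, with a difference of -0.25 for Nr4a1 (adjusted p = 0.766) and 0.51 for Nr4a3 (adjusted p = 0.613). Both were weak, with Nr4a1 detected on 2 CD8a+ and 3 ThPOK+ arrays and Nr4a3 on 2 and 1, which limits what could be seen. It was the 1 gene to pass of 24 tested immediate early and nuclear receptor genes, of which 20 had a negative difference and the median was -0.26. Klf9, a Krüppel-like factor induced by glucocorticoids, had 8.33, 6.98, 7.42 and 8.48 in CD8a+ cells and 6.80, 5.09, 6.16 and 5.69 in ThPOK+ cells (rose by 1.87 ± 0.30, adjusted p = 0.0349). Nfkbiz, an atypical inhibitor of NF-kappa B that also activates some of its targets, fell by 0.98 ± 0.16 (adjusted p = 0.0399), and its 4 set differences ran from -1.07 to -0.75.

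Hif1a and Epas1, which encode oxygen-regulated alpha subunits of hypoxia-inducible factors, were both lower. Hif1a had 7.65, 7.39, 7.26 and 8.09 in CD8a+ cells, against 8.89, 8.59, 8.71 and 9.81 in ThPOK+ cells, and fell by 1.4 ± 0.21 (adjusted p = 0.0279). Epas1 had 5.90, 6.53, 6.02 and 5.67 in CD8a+ cells, against 8.41, 7.64, 7.09 and 7.30 in ThPOK+ cells, and fell by 1.58 ± 0.26 (adjusted p = 0.0349). For both, all 4 CD8a+ arrays lay below all 4 ThPOK+ arrays. Of 14 tested enzymes of glycolysis, none passed in either direction by limma, 2 had an unadjusted p under 0.05, and their differences lay between -0.56 and 0.59 with a median of -0.07.

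The lineage factor list had 27 tested genes, of which 0 rose and 2 fell, Tcf7 among them. Tcf7 encodes TCF-1, the Wnt-responsive factor of naive, memory and helper T cells, and had 5.63, 7.21, 6.23 and 6.01 in CD8a+ cells, against 8.61, 8.68, 7.40 and 9.12 in ThPOK+ cells (fell by 2.18 ± 0.38, adjusted p = 0.044). The decrease was larger in TR set 1 and WT set 2 (-2.98 and -3.11) than in TR set 2 and WT set 1 (-1.47 and -1.17). Axin2, a target and brake of Wnt signalling, fell by 1.27 ± 0.21 (adjusted p = 0.0394), with 6.88, 6.97, 6.19 and 6.59 in CD8a+ cells and 7.90, 7.99, 7.65 and 8.18 in ThPOK+ cells. Lef1, a partner of TCF-1, had a difference of -1.83 and did not pass (adjusted p = 0.148). Klf2, a factor of circulating T cells, had a difference of -1.73 ± 0.31 (adjusted p = 0.0522), and Satb1, a chromatin organiser, one of -2.05 ± 0.38 (adjusted p = 0.0534). Id2 at -0.05 and Rora at 0.06 lay near 0 with signals above 11 in both subsets, and Tbx21, the Th1 factor, was at 0.61 (adjusted p = 0.309).

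Costimulation and helper ligands were the list outside the Th17 genes with the most members past the threshold. Of 13 tested, 0 rose and 6 fell, and the median was -1.17. This list too was chosen with earlier results of these data known. Cd28, the main costimulatory receptor of naive T cells, had 6.95, 6.11, 7.65 and 7.32 in CD8a+ cells, against 10.12, 10.17, 9.40 and 10.40 in ThPOK+ cells (fell by 3.01 ± 0.38, adjusted p = 0.0123). Icos, its inducible relative, had 7.83, 7.94, 7.86 and 8.08 in CD8a+ cells and 9.81, 10.33, 9.42 and 10.37 in ThPOK+ cells (fell by 2.05 ± 0.22, adjusted p = 0.0108). Both were lower on every CD8a+ array, and the CD8a+ values of Icos differed little across hosts and replicates. The genes lie near each other on chromosome 1 with 1 coding gene between them in RefSeq order.

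The other 4 belong to the tumour necrosis factor families. Tnfsf11, the ligand RANKL, had 6.69, 7.67, 7.35 and 7.34 in CD8a+ cells, against 9.19, 9.76, 8.55 and 9.67 in ThPOK+ cells (fell by 2.03 ± 0.22, adjusted p = 0.0108). Tnfsf8, the ligand of CD30, had 7.18, 5.40, 6.40 and 8.24 in CD8a+ cells and 9.50, 9.15, 8.25 and 9.75 in ThPOK+ cells (fell by 2.35 ± 0.35, adjusted p = 0.0279), and its highest CD8a+ array was almost level with its lowest ThPOK+ array. Tnfrsf4, the receptor OX40, was detected on 1 of 4 CD8a+ arrays and 4 of 4 ThPOK+ arrays. It had 5.26, 5.0, 5.74 and 5.12 in CD8a+ cells and 7.40, 7.27, 7.33 and 8.16 in ThPOK+ cells (fell by 2.26 ± 0.26, adjusted p = 0.0112). Cd40lg, the helper ligand that licenses B cells and dendritic cells, remained detected on all 8 arrays and had the smallest of these decreases, 1.17 ± 0.17 (adjusted p = 0.0209), with 8.46, 8.34, 8.14 and 8.26 in CD8a+ cells and 9.79, 9.57, 8.87 and 9.64 in ThPOK+ cells. Tnfrsf26, a further member of the receptor family, was detected on 0 of 4 CD8a+ arrays and 3 of 4 ThPOK+ arrays and was at least 1.31-fold lower (adjusted p = 0.0362). Among 7 tested inhibitory receptors none passed by limma (4 at an unadjusted p under 0.05). Their differences were positive for 4 and negative for 3, with a median of 0.19. Btla had a difference of -1.57 ± 0.29 (adjusted p = 0.0522) and Cd200r1 one of 1.12 ± 0.34 (adjusted p = 0.262). For both genes the arrays of the 2 subsets did not overlap.

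Cytotoxic and NK-type genes rose in part. Of 9 tested NK-type receptors, 2 rose, 0 fell, 6 had a positive and 3 a negative difference, and the median was 1.02. Cd244a, a SLAM-family receptor known as 2B4, had 8.63, 9.32, 7.65 and 8.52 in CD8a+ cells, against 6.66, 5.68, 6.29 and 5.45 in ThPOK+ cells (rose by 2.51 ± 0.35, adjusted p = 0.0193). Klrd1, the CD94 chain that pairs with NKG2 receptors, had 8.26, 7.72, 7.87 and 9.71 in CD8a+ cells and 6.79, 5.63, 6.5 and 7.04 in ThPOK+ cells (rose by 1.90 ± 0.26, adjusted p = 0.0169). All CD8a+ arrays of both genes lay above all ThPOK+ arrays. Cd160 had a difference of 1.06 ± 0.19 and did not pass (adjusted p = 0.0522). Klrg1 went the other way, at -1.07 ± 0.31, and did not pass either (adjusted p = 0.247). It was detected on 1 CD8a+ and 3 ThPOK+ arrays, and all its CD8a+ arrays lay below all its ThPOK+ arrays.

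Of 16 tested cytotoxic granule and death ligand genes other than granzymes, 2 rose, 0 fell, 13 had a positive difference, and the median was 0.44. Nkg7, a granule membrane protein needed for degranulation, had 10.48, 10.84, 10.61 and 10.73 in CD8a+ cells, against 8.95, 9.81, 9.59 and 9.18 in ThPOK+ cells (rose by 1.28 ± 0.16, adjusted p = 0.0122). Fasl, the death ligand, had 9.58, 9.92, 9.44 and 9.21 in CD8a+ cells and 8.30, 8.50, 8.81 and 7.72 in ThPOK+ cells (rose by 1.20 ± 0.20, adjusted p = 0.0362). The groups were separate for both. Prf1, the pore-forming perforin, was high in both subsets, at 12.53 ± 0.27 in CD8a+ cells and 12.33 ± 0.22 in ThPOK+ cells (SD, n = 4 each), with a difference of 0.21 ± 0.15 (SE, adjusted p = 0.714). Of the 4 granzymes tested, Gzmb and Gzmk rose, by 2.68 ± 0.32 (adjusted p = 0.0118) and 1.64 ± 0.17 (adjusted p = 0.0108), and Gzme and Gzmd had differences of 1.35 and 0.07 that did not pass.

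Ccl4, a chemokine made by activated cytotoxic cells, had 12.21, 12.62, 12.35 and 12.33 in CD8a+ cells, against 9.77, 10.63, 11.47 and 9.93 in ThPOK+ cells (rose by 1.92 ± 0.27, adjusted p = 0.0193). It was the 1 of 6 tested chemokines to pass. Its neighbour in function Ccl3 was detected on 4 of 4 CD8a+ arrays and 0 of 4 ThPOK+ arrays, at least 2.09-fold higher, and did not pass (adjusted p = 0.0591). Of 20 tested chemokine and migration receptors 0 rose and 1, Ccr6, fell, with a median of -0.39. Of 21 tested integrins and adhesion genes none passed by limma and 12 had an unadjusted p under 0.05. Differences in this list were positive for 12 genes and negative for 9, with a median of 0.09. Itgae, the CD103 chain that binds epithelial E-cadherin, had 12.45, 12.03, 12.19 and 12.05 in CD8a+ cells and 10.77, 11.42, 11.47 and 10.37 in ThPOK+ cells (difference 1.17 ± 0.22, adjusted p = 0.0614). Jaml, an adhesion receptor of intraepithelial lymphocytes, had a difference of 1.12 ± 0.21 (adjusted p = 0.0614). Cd44 and Itgb1 went the other way, at -0.81 ± 0.19 and -1.25 ± 0.30 (adjusted p = 0.124 and 0.131). For these 2 genes all CD8a+ arrays lay below all ThPOK+ arrays.

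Endosomal and autophagy genes changed in both directions. Of 24 tested, 2 rose, 1 fell, and the median was -0.06. Gabarapl1, an ATG8-family protein of autophagosomes, had 8.87, 8.85, 8.36 and 9.45 in CD8a+ cells, against 6.78, 7.49, 6.99 and 7.64 in ThPOK+ cells (rose by 1.65 ± 0.18, adjusted p = 0.0112). Its relatives Gabarap, Gabarapl2 and Map1lc3b had differences of -0.05, -0.34 and 0.03 and did not pass. Litaf, a membrane protein of late endosomes, had 10.67, 10.91, 10.37 and 10.88 in CD8a+ cells and 9.18, 9.46, 9.75 and 8.93 in ThPOK+ cells (rose by 1.38 ± 0.21, adjusted p = 0.0279). Ctss, the lysosomal protease cathepsin S, had 7.5, 8.11, 8.31 and 8.10 in CD8a+ cells and 8.97, 9.12, 9.26 and 9.32 in ThPOK+ cells (fell by 1.16 ± 0.16, adjusted p = 0.0193). Ctla2a, which resembles the propeptide of cathepsins and inhibits them, fell by 2.04 ± 0.31 (adjusted p = 0.0293), and it has a close copy in the mouse genome whose transcripts a probe may share. Ncf1, the organiser subunit of the phagocyte NADPH oxidase, had 8.77, 8.90, 8.34 and 9.06 in CD8a+ cells and 6.0, 7.59, 7.03 and 6.63 in ThPOK+ cells (rose by 1.95 ± 0.27, adjusted p = 0.0172).

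Glycan enzymes also gave 1 gene each way among 25 tested (median -0.02). St6gal1, the sialyltransferase that caps N-glycans on lymphocyte surfaces, was detected on 1 of 4 CD8a+ arrays and 4 of 4 ThPOK+ arrays. It had 5.09, 4.95, 5.42 and 6.95 in CD8a+ cells, against 9.61, 7.46, 7.63 and 8.97 in ThPOK+ cells (fell by 2.81 ± 0.44, adjusted p = 0.0315), and the detected CD8a+ value is the WT array of replicate 2. Chsy1, a chondroitin synthase, had 8.22, 8.91, 8.27 and 8.16 in CD8a+ cells and 6.51, 8.15, 7.24 and 6.31 in ThPOK+ cells (rose by 1.34 ± 0.21, adjusted p = 0.0334). Pygl, a glycogen phosphorylase, rose by 1.36 ± 0.22 (adjusted p = 0.0334), and its second detected probe gave 1.61. Gcat, a mitochondrial enzyme of threonine breakdown, was detected on 0 of 4 CD8a+ and 2 of 4 ThPOK+ arrays, was at least 1.06-fold lower, and kept its call in 3 of the 23 alternative settings that tested it. Cholesterol synthesis (14 tested, median 0.33), fatty acid handling (16, median 0.01), proliferation (21, median 0.01), interferon response (23, median -0.08), apoptosis (20, median 0.08), cytokines (11, median -0.08) and cytokine receptors (24, median -0.26) had no member past the threshold by limma. Their members with an unadjusted p under 0.05 numbered 2, 4, 1, 3, 5, 5 and 9 in that order.

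**Figure D5:**
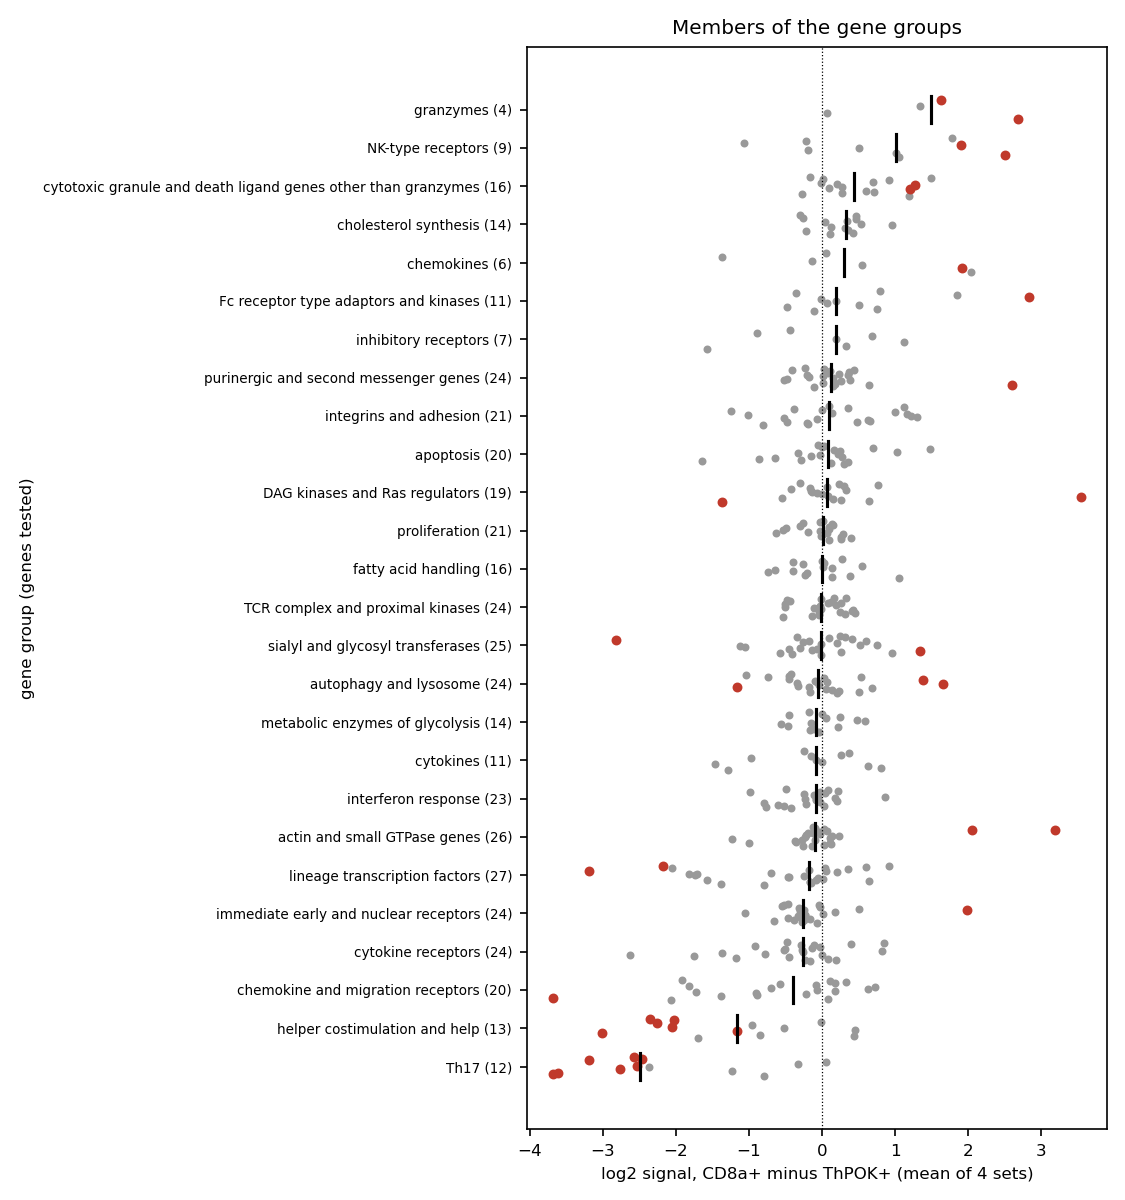
Difference in log2 signal, CD8a+ minus ThPOK+ (horizontal axis, mean of 4 sets), of each tested member of 26 gene lists (vertical axis, with the number tested). Red points passed the threshold over all genes, gray points did not, and black bars are list medians, which run from 1.49 for granzymes to -2.50 for Th17 genes against 0.0034 for all genes.

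The Th17 list, chosen with its fall in these data known, had 7 of 12 tested members lower and 0 higher. Ccr6, the receptor that draws Th17 cells to CCL20, had 7.80, 6.17, 6.93 and 6.43 in CD8a+ cells, against 10.70, 10.79, 9.93 and 10.64 in ThPOK+ cells (fell by 3.68 ± 0.35, adjusted p = 0.0108), and a second probe gave -1.56. Others were Il17a (-3.62 ± 0.39), Il1r1 (-2.77 ± 0.26), Il22, Tmem176a and Tmem176b. Il22 was detected on no CD8a+ array and on all 4 ThPOK+ arrays and was at least 3.43-fold lower (adjusted p = 0.0123). Iltifb, a near copy that lies beside it on chromosome 10, was detected on 0 of 4 CD8a+ and 2 of 4 ThPOK+ arrays (adjusted p = 0.0334), and because the copies are so alike their probes may not be separate measurements. Tmem176a and Tmem176b, 4-pass membrane proteins of Th17 cells and some myeloid cells, are neighbours on chromosome 6 and fell by 2.46 ± 0.38 and 2.57 ± 0.33. The Tmem176a window printed above shares 155, 208 and 6 bases with the 3 windows of Tmem176b. Adjacent or near-adjacent pairs that moved the same way also included Gabarapl1 and Klrd1 with 1 coding gene between them and Ncf1 and Lat2 with 5.

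Of the 60 genes, 27 were in none of the 26 lists, and those not described above follow. Emp1, a membrane protein with 4 spans, had 6.92, 7.45, 7.67 and 5.88 in CD8a+ cells, against 8.47, 9.08, 9.41 and 8.62 in ThPOK+ cells (fell by 1.92 ± 0.23, adjusted p = 0.0122). Apbb1, an adaptor of the amyloid precursor protein, had 7.66, 7.56, 8.29 and 8.01 in CD8a+ cells and 5.43, 6.33, 6.22 and 5.34 in ThPOK+ cells (rose by 2.05 ± 0.33, adjusted p = 0.0334). The deubiquitinases Usp11 and Usp20 rose by 1.60 ± 0.26 and 0.81 ± 0.14, the second being the smallest difference of all 60, and the other Usp11 probe gave 0.70. Trib2, a pseudokinase of the Tribbles family, fell by 1.07 ± 0.16 (adjusted p = 0.0248). A further 8 identifiers have no gene name in the reference gene table. OTTMUSG00000000990, LOC100045268, LOC676420 and LOC100047167 rose by 2.50 ± 0.31, 1.31 ± 0.22, 1.19 ± 0.16 and 1.10 ± 0.16. LOC100048845, LOC100046855 and LOC100048841 fell by 3.67 ± 0.49, 1.61 ± 0.25 and 1.53 ± 0.24, and LOC435565, detected on 0 of 4 CD8a+ and 3 of 4 ThPOK+ arrays, was at least 1.76-fold lower.

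Just outside the threshold were genes of like size. The 12 nearest on each side whose groups did not overlap and whose probe was detected on all 4 arrays of the brighter subset had adjusted p between 0.0501 and 0.0675. The higher ones included Cipc, Gpr34, Gprasp1, Abi3, Ccl3, Tsga10, Cst7, Jaml, Itgae, Haspin and Dapk2, with Tsga10 at 2.30 ± 0.44 and Abi3 at 0.83 ± 0.15. The lower ones were Usp33, Btla, Cant1, Satb1, Tspan32, Glipr2, Podnl1, Odc1, Tmem65, Tasp1, S100a6 and Tpm4. Podnl1, at 7.34, 6.57, 9.49 and 5.27 in CD8a+ cells and 10.38, 10.71, 10.04 and 10.02 in ThPOK+ cells (difference -3.12 ± 0.58), and Usp33, at 6.30, 7.18, 7.23 and 6.89 in CD8a+ cells and 9.86, 9.38, 9.53 and 10.21 in ThPOK+ cells (difference -2.84 ± 0.51), differed by more than most genes that passed.

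A second probe was available for 14 of the 60 genes, and all 16 other probes had the direction of the probe used. The smallest was that of Usp11, and Tmem176a's other probe gave -0.81 against -2.46. Over all probes, the other probes of Lat2, Usp11, Tmem176a, Ccr6, Dgka and Tcf7 did not pass, nor did a Swap70 probe (limma, adjusted p from 0.0515 to 0.236). In CD8a- cells, which had neither ThPOK nor CD8a, the mean signal lay between those of CD8a+ and ThPOK+ cells for 52 of the 60 genes (23 of the 27 higher and 29 of the 33 lower). The 60 were chosen for their distance between the outer subsets, which favours such a middle place, so this is a description. The place of CD8a- cells varied by gene. In the order CD8a-, CD8a+ and ThPOK+ cells, the means were 10.59, 10.66 and 9.38 for Nkg7 and 6.77, 6.83 and 10.52 for Ccr6. For Klrd1 they were 6.83, 8.39 and 6.49. A difference between CD8a+ and ThPOK+ cells is therefore not always particular to CD8a+ cells.

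Whether the difference between subsets depended on the host or the replicate number was fitted as an interaction, with 4 residual degrees of freedom. For TR against WT hosts limma passed 0 genes (0%, 414 at an unadjusted p under 0.05, smallest adjusted p 0.998), and 0 again with the hosts of replicate 1 exchanged (0%, 528 and 0.913). For replicate 2 against replicate 1 it passed 0 genes (0%, 662 and 0.385). Of the 60 genes, 8 had an unadjusted replicate p under 0.05: Mras, Cd244a, Glp1r, Ccr6, Il22, Tiam1, Tmem176a and LOC100048845, all with the larger difference in replicate 2. Mras, for example, differed by a mean of 4.44 in the replicate 2 sets and 2.65 in the replicate 1 sets, and Cd244a by 3.35 and 1.66. Gzmb had an unadjusted host p of 0.00508, with differences of 3.10 and 3.84 in the TR sets and 1.59 and 2.22 in the WT sets, and with an adjusted p of 0.998 it did not pass. The host contrast of Gzmb was 1.56 under these labels and 0.06 with the hosts of replicate 1 exchanged, so it depends on the disputed labels. Of the 60 genes, 2 reached the unadjusted level of 0.05 for host in limma, Gzmb and LOC435565. With the hosts of replicate 1 exchanged 7 did, Tcf7 among them and Gzmb not.

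Markers of other cell types differed between the subsets within single sets, in both directions. All 11 tested Paneth and goblet cell genes, of 18 listed, had a negative difference (0 passed, median -0.59), and their mean level per array lay between 5.17 and 9.36 in CD8a+ cells and between 6.20 and 9.47 in ThPOK+ cells. By set, in the order TR 1, TR 2, WT 1 and WT 2, their median difference was -0.96, -0.57, -2.13 and 1.42. The same medians were -0.33, -0.05, -1.97 and 1.60 for epithelial genes and -0.41, -0.24, -1.25 and 0.44 for myeloid genes. The median size of the differences of the 60 genes was 1.38 in WT set 1 and 2.26 in WT set 2. Of 13 tested epithelial genes, 9 were negative (0 passed, median -0.22, mean levels 5.95 to 9.38 in CD8a+ cells and 6.31 to 9.73 in ThPOK+ cells), and of 9 tested myeloid genes 8 were negative (0 passed, median -0.33, mean levels 5.40 to 6.81 in CD8a+ cells and 5.89 to 7.75 in ThPOK+ cells). With the Paneth and goblet mean as a covariate, 94 genes passed, among them 56 of the 60. Medians of the markers of B and plasma cells (3 tested), erythroid cells (3), NK cells (3) and CD8ab or gamma-delta T cells (2) were 0.04, -0.03, 0.65 and 0.68, with 0 past the threshold. Cd8b1, the chain of conventional CD8 T cells, was detected on 2 of 4 arrays of each subset, at 5.61, 6.17, 6.90 and 7.27 in CD8a+ cells and 5.71, 5.14, 5.98 and 5.38 in ThPOK+ cells (difference 0.94 ± 0.37, adjusted p = 0.436). The Paneth and goblet covariate was made from those genes alone and holds no epithelial, myeloid or NK list. The part of other cell types in the differences was not tested.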

How the data were processed

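Total RNA of sorted cells was measured on 12 Illumina MouseRef-8 bead arrays. The deposited intensity values are bead means of each probe, not normalised, and come from GenomeStudio 1.0.6, per the file headers. They stand beside a detection score between 0 and 1 (a deposited fraction, read as 1 minus the detection p) and bead counts. The deposited table of bead counts gave a median of 36 to 41 beads per probe on each array. A second deposited table holds log2 values centred per probe on the set median (100% of 25697 probes, tolerance 1e-06), whose scale and centring are otherwise unstated. Its probes share no identifier with the intensity table, so it served for counts only. Higher intensities had higher values there. Its differences between CD8a+ and ThPOK+ cells matched the intensities under the same host label in replicate 2 and under the other host's label in replicate 1. A further 60 columns were not used.

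Intensities were background-corrected with neqc (offset 16), quantile-normalised and put on a log2 scale in R 4.3.3 with limma 3.58.1. A probe was kept if 2 or more arrays detected it at p under 0.05 (14635 of 25697), and the brightest probe stood for each of 10612 genes. Of the probes, 20736 carried a current RefSeq symbol, 3841 an older one and 1120 the file's name. The model had 3 subset means and the 4 sets as a block (6 residual degrees of freedom), with two-sided tests, Benjamini-Hochberg adjustment over all genes and a threshold of 0.05. Deviations of arrays from subset means correlated more within their own set (0.401 to 0.531) than with any other set (up to 0.338), so the sets were taken to pair the arrays, a pairing that comes from the labels' host and replicate number. No 2 arrays were identical. The fit was tested on simulated data.

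Genes past the threshold are named, then the 12 nearest to it each way whose arrays did not overlap and whose probe all 4 arrays of the brighter subset detected, then members of gene lists. Some results under this rule are not reported here but are included in the counts. The comparison, the 26 gene lists and the 8 marker lists were chosen with earlier results of these data known. Alternatives changed the block, the background correction, the scaling, the detection filter, the arrays and the variance model. The number of arrays limits the precision of each value.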

Additional observations from a re-analysis of the deposited data

Results flagged for a closer look

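Among the 60 genes past the threshold, the 4 arrays of each subset were examined for 1 array far from the other 3, which makes 120 groups. In 4 of them the gap of the extreme array to its nearest neighbour was a larger share of the whole range than Dixon's 95% critical value allows, and chance gives this in about 1 group in 20. For Chsy1 the CD8a+ array of TR replicate 2 was the high one, at a log2 signal of 8.91 with the next at 8.27. For Ccr6 the ThPOK+ array of WT replicate 1 was the low one, at 9.93 with the next at 10.64. For Tmem176a the ThPOK+ array of TR replicate 2 was high, at 9.57 with the next at 8.46. For Tnfrsf4 the ThPOK+ array of WT replicate 2 was high, at 8.16 with the next at 7.40. In each case the array lay on its own subset's side of the gap between CD8a+ and ThPOK+ cells.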

How the results depend on the processing

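The direction of the 60 genes held in every setting that named them, which their same sign in all sets made likely in advance. Their number past the threshold did not hold. Without the replicate block of sets 16 genes passed, of which 12 were list members, and with the replicate number alone as the replicate block 34 passed, of which 18 were list members (60 and 33 with sets as the block). With only the 8 arrays compared 0 passed, 0 of them list members, as with the replicate 2 sets alone (743 at an unadjusted p under 0.05, smallest adjusted p 0.274), and with the replicate 1 sets alone 3 passed, none of the 60 and 0 list members. These last settings hold fewer samples. Without background correction 137 passed (57 list members), with a variance trend and robust moderation 149 (61), and from the deposited log2 values 146 unnamed probes passed. With the Paneth and goblet covariate 94 passed, 56 of the 60 among them. Without background correction and with the variance trend, 60 of 60 were among those that passed. Leaving out 1 array gave 2 to 78 genes and 1 to 38 list members. The count was 2 when TR ThPOK+ replicate 1 was left out, 5 for the TR CD8a+ array of replicate 1, 17 for that of replicate 2 and also for WT ThPOK+ replicate 2, and 26 for WT CD8a+ replicate 2. Leaving out a CD8a- array gave 29 to 75. Genes whose arrays did not overlap numbered 154 under median scaling, against 324 under quantile normalisation, and 324 to 618 with 1 array left out, since fewer arrays separate more easily. The replicate interaction passed 0 to 6 genes with 1 array left out, 6 without TR CD8a+ replicate 2. Gzmd ran from -0.0127 (TR CD8a+ replicate 2 left out) to 0.1443 with 1 array left out and turned to -0.0629 in the replicate 1 sets, and Cd4 to -0.12 in the replicate 2 sets, none past the threshold in any of these. Ccr6 passed in 21 of 24 settings, Il17a and Il1r1 in 20, Scin in 5, and Gcat in 3 of 23. Apart from the smaller numbers of samples, the cause was not tested. Weak signal limits what can be seen for the 7 genes with no detection in one subset.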
